A study of Danio rerio with 54 samples.

Results

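The comparison described here was between zebrafish larvae held for 6 h at 10 °C (lc_6h) and larvae of the same age that stayed at 28 °C (ctrl_102hpf). It was made on 6 of the 54 samples of the series, 3 in each group, and the members were chosen by their group labels alone. All samples were whole-body larvae of the AB strain, pooled in a tube before RNA extraction. The study's methods describe anaesthesia with tricaine before larvae were collected, and no transgene or inhibitor is named for either group. The lc_6h larvae were raised at 28 °C to 96 h post fertilization (hpf) and then moved directly into medium at 10 °C. They were therefore 102 hpf old when collected, at the same hour of day as ctrl_102hpf. Age and time of day were thus shared, and temperature over the last 6 h was not. The study's cold procedure also caught larvae on a mesh and rinsed them into fresh cooled medium, and no such step is described for the controls. Effects of that handling and of the cold cannot be told apart here. Larvae at the start of the cold (ctrl_96hpf), and larvae cooled for 1, 2 or 12 h with their own same-age controls (ctrl_97hpf, ctrl_98hpf and ctrl_108hpf, 3 samples per group), were used where stated. The study refers to the samples of a group as biological replicates, but how many larvae made up a sample, and whether the 3 samples of a group came from separate clutches or dishes, is not given in the sources used here. Every p-value rests on how far the 3 samples within a group spread, whatever the source of that spread. The spread was estimated jointly over all 18 groups of the series, not from the groups compared alone.

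Expression was given in TPM, the share of a library's transcripts that a gene takes after correction for transcript length, so a gene's TPM can move because other genes take more or less of the library. TPM values hold no read numbers, so no counting interval was given. In these bulk samples, fewer cells of a type and less RNA per cell cannot be told apart. Of 30097 genes in the table, 25387 reached at least 1 TPM in every sample of at least 1 group and were tested. A gene was called higher or lower in the cold when its fold change was at least 1.5 and its adjusted p at most 0.05 in a limma fit on log2(TPM + 1). Log2 fold changes are given on that scale with their standard errors (SE), and they understate the change of genes near 1 TPM. Tissue marker lists were then looked at in the controls. Only members that passed this filter in some group were counted, so high shares were largely fixed in advance. Before the filter these lists held 99, 48, 60, 63, 40 and 45 entries, in the order given next. In ctrl_102hpf, 97 of 97 muscle sarcomere genes, 45 of 45 keratin and desmosome genes, 58 of 59 synaptic neuron genes, 58 of 59 photoreceptor genes, 37 of 38 liver genes and 34 of 35 exocrine pancreas genes were detected at a mean of at least 1 TPM. Samples of lc_6h correlated with each other at r = 0.981 over genes and those of ctrl_102hpf at 0.972 to 0.975. Pairs taken across the groups correlated at 0.953 to 0.958, and no library was a copy of another.

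Several gene programs with known behaviour are followed below. The gene lists were chosen with earlier results of these data known. Their counts of called members are therefore descriptions and not independent evidence. Immediate-early genes, such as the Fos, Jun and Egr factors, need no new protein to be transcribed and respond to stress or growth signals. Their products switch on a slower wave of genes, and feedback inhibitors such as the dual-specificity phosphatases shut the signal off. The circadian clock is a loop in which Clock and Bmal activate the Period, Cryptochrome and Rev-erb genes, whose products repress it in turn. In fish larvae of this age the gut and exocrine pancreas are maturing as the yolk is used up and feeding starts.

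At 6 h, 844 genes were higher in the cold (3.32% of those tested) and 933 were lower (3.68%). Changes were larger among the higher genes than among the lower ones. Among the higher genes 400 had changed at least 2-fold and 139 at least 4-fold, against 158 and 12 of the lower genes, and the median size of the change was 0.97 and 0.74 on the log2 scale. The higher calls were 47.5% of all calls, and 56.9% after median-of-ratios scaling or 54.3% after quantile normalization, since the median gene lay at -0.05 in the deposited scale. The 3 samples of one group did not overlap the 3 of the other for 819 of the 844 and 915 of the 933 genes. Over all tested genes the groups did not overlap for 10382 (40.9%). Lack of overlap was also required of the genes named below for the largest changes, so for them it restates the selection. Against ctrl_96hpf, 559 of the 844 genes (66.2%) were higher and 308 of the 933 (33.0%) were lower. Over all tested genes these shares were 2.65% and 2.19%. From ctrl_96hpf to ctrl_102hpf, 53 of the 844 were called lower and 1 higher. Of the 933, 203 were called higher and none lower, against 0.993% and 0.374% of all genes. These comparisons share samples with the main one.

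Early-response genes were among the steepest rises. Of 17 measured AP-1 factors and atf3, 11 were higher in the cold and none was lower, and the median log2 fold change was 1.19. Of these 17, 13 had a mean of at least 1 TPM in ctrl_102hpf. Members below that level entered the test through other groups and could hardly be called lower. Of 30 EGR, IER and NR4A early genes, 20 were higher and 1 was lower, with a median of 0.87. Over all tested genes the median was -0.05 and 3.32% were called higher.

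**Figure D1:**
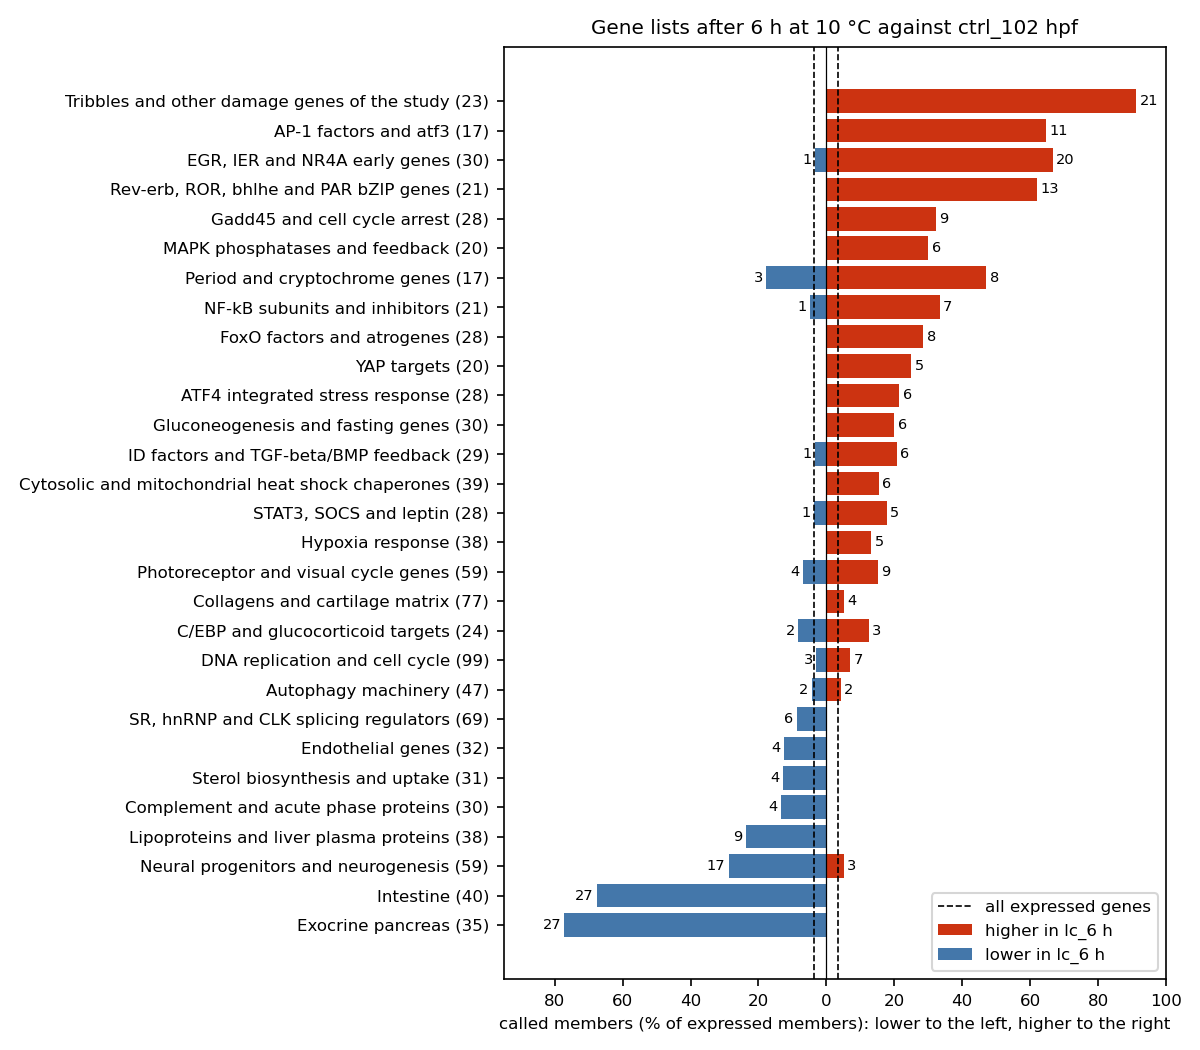
Share of the measured members of each gene list called higher (to the right) or lower (to the left) at lc_6h against ctrl_102hpf, in percent, for the 29 lists with at least 4 called members. Dashed lines give the share over all tested genes, 3.32% higher and 3.68% lower. All lists were chosen with earlier results of these data known. The longest bar, with 21 of 23 members higher, is that of the damage genes, each picked with results of these samples known. The next longest belong to early-response, clock and digestive lists, with 11 of 17 AP-1 members higher and 27 of 35 pancreatic members lower.

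The fos paralogue fosab (ENSDARG00000031683), a partner in the AP-1 dimer, measured 5.02, 2.37 and 2.76 TPM in ctrl_102hpf and 164, 198 and 172 TPM in lc_6h. The cold samples lay far above every control sample, and the ratio of the means was 52.6 (log2 fold change 5.39 ± 0.26 SE, adjusted p = 9.5e-20). Its Jun partner junbb went from 12, 13.3 and 12.2 TPM to 185, 183 and 182 TPM (3.77 ± 0.12, adjusted p = 7.6e-26), with the 3 cold samples almost equal. fosl1a, a Fos family member of the delayed wave, was under 1 TPM in each control sample and reached 20.8, 19.4 and 21.2 TPM. atf3, a stress-induced bZIP repressor, measured 3.93, 3.98 and 3.66 TPM in the controls and 35, 37.2 and 41.1 TPM in the cold (2.99 ± 0.19, adjusted p = 3.5e-16). jdp2b (2.97), junba (2.54) and fosb (2.46) were also higher, all with groups that did not overlap. Transcripts of both the Fos and the Jun partner were thus raised in the same samples.

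Among the zinc-finger and IER genes, ier2a measured 9.18, 11 and 11.2 TPM in ctrl_102hpf and 232, 219 and 243 TPM in lc_6h (4.34 ± 0.13, adjusted p = 3.7e-27). egr1, a zinc-finger factor induced by growth and stress signals, stood under the identifier ENSDARG00000037421 at 9.11, 9.65 and 9.79 TPM in the controls and 183, 188 and 194 TPM in the cold (4.17 ± 0.09, adjusted p = 2e-32). A second identifier with the symbol egr1 showed 6.56, 7.41 and 6.66 TPM against 130, 119 and 144 TPM (4.06 ± 0.16), and reads may have been split between the copies. The antiproliferative gene btg2 (3.19), egr4 (3.06), ier2b (3.42) and klf11b (2.37) moved the same way. npas4a, a factor induced by neuronal activity, rose from 1.01, 1.24 and 1.55 TPM to 13.0, 11.4 and 10.9 TPM (2.50 ± 0.20, adjusted p = 4.8e-13). The lower member was klf2a, a flow-responsive endothelial factor, at -0.71 (adjusted p = 0.00096). Without ctrl_102hpf replicate 3 its value was -0.56 and it was no longer called.

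Some feedback genes of these signals were higher too. Of 20 MAPK phosphatase and feedback genes 6 were higher and none was lower, where 3.32% and 3.68% of all tested genes were. Their median was 0.34. dusp5, a nuclear ERK phosphatase, measured 2.19, 2.18 and 2.73 TPM in ctrl_102hpf and 22.9, 21.4 and 21.2 TPM in lc_6h (2.76 ± 0.14, adjusted p = 3.3e-19). The stress phosphatase dusp1 went from 30.1, 21.1 and 22.5 TPM to 100, 113 and 110 TPM (2.1 ± 0.16, adjusted p = 1.3e-13), and dusp2, dusp4 and dusp6 had log2 fold changes of 1.70, 1.62 and 1.28. Of 21 NF-kB subunits and inhibitors 7 were higher and 1 was lower, with a median of 0.01. The higher ones included the inhibitor nfkbiaa, at 26.1, 24.6 and 28.8 TPM in the controls and 159, 152 and 161 TPM in the cold (2.53 ± 0.15, adjusted p = 1.3e-16), its paralogue nfkbiab (1.41), the subunit rel (1.57) and the deubiquitinase tnfaip3 (1.36), a brake on the pathway. The lower one was nfkbiz, at -0.71, which was -0.56 and not called without lc_6h replicate 2.

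Of 25 cytokines, chemokines and prostaglandin synthases, 3 were higher and none was lower, where 3.32% of all tested genes were higher. Only 19 of the 25 had a mean of at least 1 TPM in ctrl_102hpf, and the others could hardly be called lower. ptgs2b, an inducible prostaglandin synthase, measured 1.96, 2.15 and 1.75 TPM in ctrl_102hpf and 18.7, 18.4 and 23.2 TPM in lc_6h (2.83 ± 0.15, adjusted p = 2.3e-18), and its paralogue ptgs2a went up by 1.65. The cytokine tnfb was at 0.759, 0.506 and 1.3 TPM in the controls and 7.48, 7.17 and 11.8 TPM in the cold (2.4 ± 0.21, adjusted p = 5e-12). Of 28 STAT3, SOCS and leptin genes 5 were higher, among them the cytokine-signal inhibitor socs3a (1.85) and the kinase pim1 (1.56), and 1 was lower. Of 32 macrophage and neutrophil genes none was higher and 3 were lower, where 3.68% of all tested genes were lower.

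**Figure D2:**
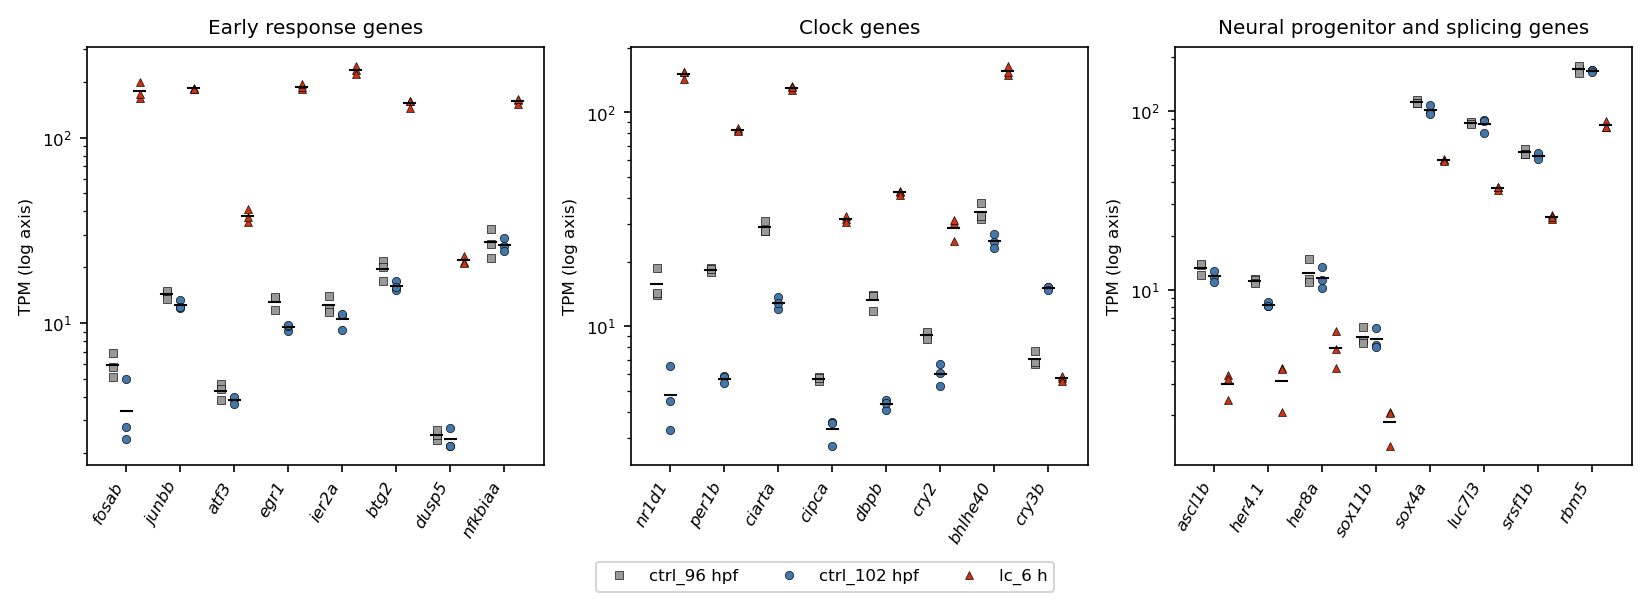
TPM of each sample on a log axis for 24 genes in 3 panels (early response, clock, and neural or splicing genes), with squares for ctrl_96hpf, circles for ctrl_102hpf and triangles for lc_6h, and a short line at each group mean. The triangles lie above both control groups for fosab (164 to 198 TPM) and nr1d1 (143 to 155 TPM), and below both for ascl1b (2.43 to 3.33 TPM).

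Stress and arrest genes were higher in part. Of 28 Gadd45 and cell cycle arrest genes 9 were higher and none was lower, where 3.32% and 3.68% of all tested genes were. The cyclin-dependent kinase inhibitor cdkn1a measured 7.20, 6.71 and 11.6 TPM in ctrl_102hpf and 23.0, 26.3 and 27 TPM in lc_6h (1.51 ± 0.13, adjusted p = 3.4e-12), gadd45bb reached 15 to 20.4 TPM from 2.32 to 4.26 TPM (2.1), and the kinase plk3 was up by 1.77. The ubiquitin ligase gene mdm2 (0.02 ± 0.16) and the cyclin G gene ccng1 (-0.16 ± 0.05) did not pass the threshold. Of 18 BCL2 family genes, the BH3-only member pmaip1 (1.79 ± 0.12) and the survival factor mcl1a (1.27 ± 0.06) were higher and none was lower.

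Of 28 genes of the ATF4 stress response 6 were higher and none was lower, where 3.32% of all tested genes were higher. The 6 were led by the pseudokinase trib3, at 12.6, 13.2 and 12.3 TPM in the controls and 43.5, 46.8 and 44.1 TPM in the cold (1.74 ± 0.08, adjusted p = 6.1e-21). cebpb (1.68), the eIF2-alpha phosphatase subunit ppp1r15a (1.42) and ddit3 (1.12) were higher with it. None of 31 endoplasmic reticulum chaperone and unfolded-protein genes was called at the deposited scale, and 2 were called higher after median-of-ratios scaling.

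Of 39 cytosolic and mitochondrial heat shock chaperone genes 6 were higher and none was lower, against 3.32% higher over all tested genes, and the median of the list was 0.02. hsp70.1, an inducible Hsp70, was at 2.92, 1.75 and 2.73 TPM in ctrl_102hpf and 12.5, 10.4 and 9.69 TPM in lc_6h (1.78 ± 0.25, adjusted p = 4.5e-07). hsp70l (1.63) and hsp70.2 (1.6) were higher by similar amounts, and their sequences are close enough that reads may be split between them. The call of a further copy, hsp70.3 (0.88), was lost when any of lc_6h replicate 1, ctrl_102hpf replicate 2 or ctrl_102hpf replicate 3 was left out (0.73, 0.62 and 0.75). The stress-sensing factor hsf1 stood at -0.03 ± 0.07.

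YAP target genes and growth-factor feedback genes were also represented. Of 20 YAP targets 5 were higher and none was lower, where 3.32% of all tested genes were higher. The matricellular gene ccn1 measured 6.08, 5.93 and 5.72 TPM in ctrl_102hpf and 51.1, 50.9 and 54.4 TPM in lc_6h (2.94 ± 0.09, adjusted p = 3.3e-27). f3b, a tissue factor of coagulation, had a log2 fold change of 2.23, amotl2b 2.01 and ccn2a 1.86. Of 29 ID factors and TGF-beta feedback genes 6 were higher and 1 was lower. id1, an inhibitor of bHLH factors and a BMP target, was among the most abundant of the responding genes, at 312, 332 and 331 TPM in the controls and 1038, 1026 and 1035 TPM in the cold (1.67 ± 0.04, adjusted p = 1.4e-28). id3 went from 29.0 to 33.2 TPM up to 89.2 to 96.3 TPM (1.58 ± 0.06).

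Some genes of fasting and energy shortage were higher. Of 28 FoxO factors and atrogenes 8 were higher and none was lower, with a median of 0.35. Of 30 gluconeogenesis and fasting genes, some of them in both lists, 6 were higher and none was lower, but the median was -0.06. txnipa, an inhibitor of glucose uptake, measured 128, 122 and 127 TPM in ctrl_102hpf and 404, 421 and 424 TPM in lc_6h (1.72 ± 0.05, adjusted p = 9.6e-27). The lipase inhibitor angptl4 went from 35, 36.1 and 38.0 TPM to 138, 147 and 153 TPM (1.98 ± 0.06, adjusted p = 1.3e-25). The insulin-like growth factor binding protein igfbp1a (1.55), pdk2b (1.11), which restrains pyruvate oxidation, and irs2b (0.97) were higher as well. Of 38 hypoxia response genes 5 were higher, igfbp1a among them, with higd1a (1.49) and pfkfb3 (1.41), and the median was -0.05. Over all tested genes 3.32% were higher. vegfaa, a hypoxia-induced angiogenic factor, was at 0.46 ± 0.11 and below the fold threshold.

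A list of 23 genes combined hub genes that the study named for cold damage, such as trib3 and dusp5, with other cold-responsive genes. Of these 21 were higher and none was lower, with a median of 1.74, where 3.32% of all tested genes were higher. All were picked with results of these samples known, so the count is not independent evidence of their direction. armc10, an armadillo-repeat gene of the list, measured 10.5, 11.4 and 11 TPM in ctrl_102hpf and 125, 129 and 130 TPM in lc_6h (3.43 ± 0.07, adjusted p = 3.6e-33).

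The clock genes changed in both directions. Of 21 Rev-erb, ROR, bhlhe and PAR bZIP genes 13 were higher and none was lower, where 3.32% and 3.68% of all tested genes were. Their median was 1.36. Of 17 Period and Cryptochrome genes 8 were higher and 3 were lower. None of 10 Clock activators was called, with clocka at 0.05 ± 0.09 and the Bmal gene arntl1a at -0.39 ± 0.08, below the fold threshold.

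nr1d1, a Rev-erb nuclear receptor that represses Bmal, measured 3.26, 4.49 and 6.53 TPM in ctrl_102hpf and 143, 154 and 155 TPM in lc_6h (4.76 ± 0.14, adjusted p = 9.6e-27). The other Rev-erb genes nr1d4b (2.72), nr1d4a (2.51) and nr1d2a (2.47) were higher with it. bhlhe40, a repressor that competes for the same E-box elements as Clock, went from 24.8, 27 and 23.4 TPM to 149, 155 and 165 TPM (2.59 ± 0.08, adjusted p = 6.4e-27), and the PAR bZIP output factor dbpb from 4.07, 4.53 and 4.39 TPM to 42.8, 42.7 and 41.3 TPM (3.02 ± 0.11, adjusted p = 1e-23). In each of these genes every cold sample exceeded every control sample.

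The repressor per1b was at 5.84, 5.81 and 5.45 TPM in ctrl_102hpf and 83.2, 84.2 and 81.8 TPM in lc_6h (3.65 ± 0.09, adjusted p = 3.6e-30). ciarta, which represses Clock and Bmal, was at 12.0, 13.7 and 12.8 TPM against 128, 133 and 132 TPM (3.25 ± 0.06, adjusted p = 4.1e-33). cipca (2.94), per1a (2.48), cry2 (2.09), per3 (1.89) and cry1a (1.53) completed the leading higher members. The 3 lower members were cryptochromes. cry3b measured 15.3, 15 and 14.8 TPM in ctrl_102hpf and 5.72, 5.87 and 5.54 TPM in lc_6h (-1.26 ± 0.11, adjusted p = 1e-11), cry3a was at -1.04 ± 0.08, and cry4 at -0.63 ± 0.06. The call of cry4 was lost after median-of-ratios scaling (-0.57) and without lc_6h replicate 3 (-0.56). The light-induced per2 was at 0.37 ± 0.09 and was not called.

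Because the clock moves with the hour, the same genes were set beside larvae at the start of the cold. In unchilled larvae nr1d1 averaged 15.7 TPM at 96 hpf and 4.76 TPM at 102 hpf, and per1b 18.4 and 5.70 TPM. Between ctrl_96hpf and ctrl_102hpf, 7 of the 17 Period and Cryptochrome genes were lower and 1 was higher, where 0.374% and 0.993% of all tested genes were. Against ctrl_96hpf, lc_6h was higher in 7 of the 17 genes and in 13 of the 21 Rev-erb, ROR, bhlhe and PAR bZIP genes, with 2.65% of all genes higher. These comparisons share samples with the main one. The cold values thus stood above both control ages for nr1d1 (3.19 ± 0.14 against ctrl_96hpf) and per1b (2.11 ± 0.09), while cry3b was not called against 96 hpf (-0.26 ± 0.11).

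Digestive genes made up the lists with the most lower members. Of 35 exocrine pancreas genes 27 were lower in the cold and none was higher, with a median of -0.86. Of 40 intestinal genes 27 were lower and none was higher, with a median of -0.70. After median-of-ratios scaling the lower calls were 27 and 23, and over all tested genes 3.68% were lower. The summed level of the pancreatic genes was 14718, 11564 and 11476 TPM in ctrl_102hpf and 5829, 6993 and 7303 TPM in lc_6h. That of the intestinal genes was 3312, 3041 and 3488 TPM against 1891, 2060 and 2039 TPM.

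Zymogens were abundant among the pancreatic genes. The trypsinogen-like gene prss59.2 measured 2512, 2133 and 2080 TPM in ctrl_102hpf and 1202, 1384 and 1450 TPM in lc_6h (-0.74 ± 0.12, adjusted p = 3.7e-06), and prss1 1964, 1621 and 1618 TPM against 889, 1029 and 1069 TPM (-0.80 ± 0.13, adjusted p = 6.5e-06). The groups did not overlap for either. The amylase amy2a went from 105, 70.0 and 71.1 TPM to 25.9, 40.2 and 37.1 TPM (-1.23 ± 0.22, adjusted p = 4.2e-05). The pancreatic phospholipase pla2g1b was at 52.5, 32.3 and 30.7 TPM against 7.38, 11 and 16.3 TPM (-1.67 ± 0.26, adjusted p = 2.4e-06). Trypsinogens, elastases and other members of these families resemble one another, and reads may be split between copies.

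In the gut, the chitinase chia.2 measured 147, 154 and 176 TPM in ctrl_102hpf and 40.8, 46.5 and 51.3 TPM in lc_6h (-1.76 ± 0.19, adjusted p = 1e-09). slc15a1a, the peptide transporter of the brush border, went from 14.3, 12.3 and 14.8 TPM to 4.03, 5.26 and 4.65 TPM (-1.39 ± 0.18, adjusted p = 1.2e-07). The amino acid transporter slc6a19b (-1.32), the protease gene mep1a.1 (-1.67) and the cathepsin B gene ctsbb (-1.91) were lower too. fabp2, the intestinal fatty acid binding protein, was at 821, 773 and 934 TPM in the controls and 494, 527 and 568 TPM in the cold (-0.67 ± 0.09, adjusted p = 3.7e-07). In all of these the groups did not overlap.

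Set beside the larvae at the start of the cold, the digestive genes looked different. Unchilled larvae gained these transcripts between 96 and 102 hpf, when 22 of the 35 pancreatic genes and 21 of the 40 intestinal genes were called higher (0.993% of all genes). The summed pancreatic level was 6232 to 7837 TPM in ctrl_96hpf, against 11476 to 14718 TPM in ctrl_102hpf and 5829 to 7303 TPM in lc_6h, so that the cold samples overlapped those of the start. Against ctrl_96hpf, 1 of the 35 pancreatic genes and none of the 40 intestinal genes was lower in lc_6h (2.19% of all genes), with medians of -0.13 and -0.12. At single genes, chia.2 averaged 53.8 TPM at 96 hpf (-0.20 in lc_6h against that age) and pla2g1b 12.8 TPM (-0.17), neither called. The 3 comparisons share samples, and their values are given side by side only.

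**Figure D3:**
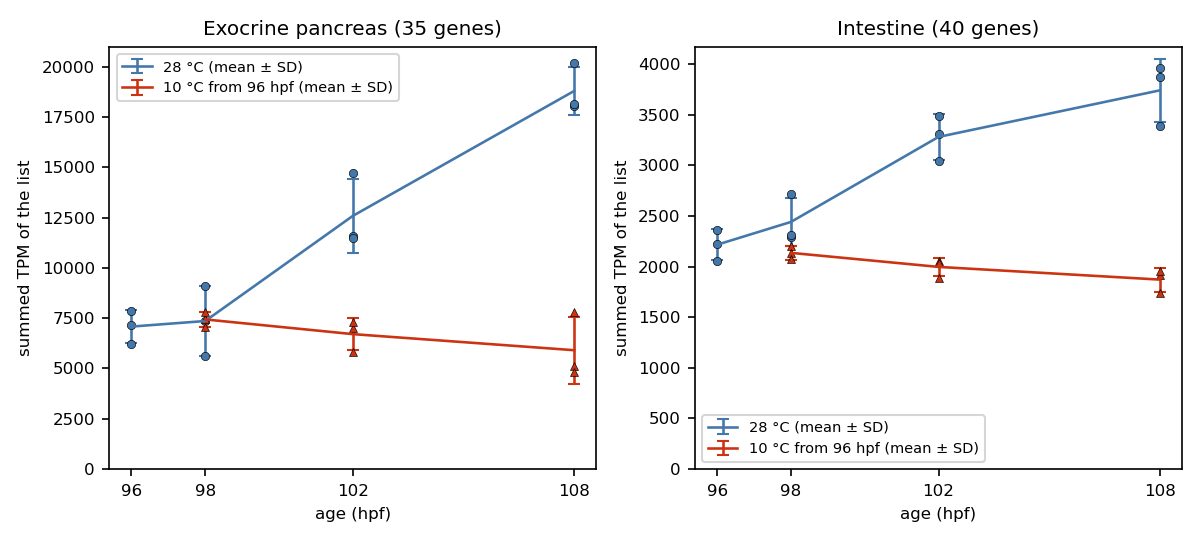
Summed TPM of the 35 exocrine pancreas genes and the 40 intestinal genes at 96, 98, 102 and 108 hpf in larvae kept at 28 °C and in larvae moved to 10 °C at 96 hpf, with a point for each sample and the mean ± SD of 3 samples. The 28 °C larvae rose to 18069 to 20184 TPM of pancreatic transcripts at 108 hpf, and the chilled ones were at 4808 to 7820 TPM at that age.

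Liver genes followed in smaller number. Of 38 lipoprotein and plasma protein genes 9 were lower and none was higher, where 3.68% and 3.32% of all tested genes were. Their median was -0.26, and 7 were lower after median-of-ratios scaling. cyp7a1, the rate-limiting enzyme of bile acid synthesis, measured 29.9, 27 and 30.9 TPM in ctrl_102hpf and 8.67, 10.5 and 12.7 TPM in lc_6h (-1.40 ± 0.11, adjusted p = 4.1e-13). In unchilled larvae 6 of the 38 genes, cyp7a1 among them, were called higher at 102 than at 96 hpf (0.993% of all genes). Against ctrl_96hpf, cyp7a1 (-0.76) was the 1 gene of the 38 that was lower in lc_6h, where 2.19% of all genes were. The median of the 38 was -0.27 against ctrl_96hpf, however, and 0.005 from ctrl_96hpf to ctrl_102hpf. Their summed level was 17351 to 18547 TPM in lc_6h, 20833 to 21875 TPM in ctrl_96hpf and 20383 to 21647 TPM in ctrl_102hpf. Against ctrl_102hpf, cyp8b1, a later enzyme of bile acid synthesis, was at -0.84 ± 0.07, and the bile acid carrier fabp6 at -1.03 ± 0.13. Of 31 sterol biosynthesis and uptake genes 4 were lower and none was higher. Against ctrl_96hpf 1 of the 31 was lower, near the share over all genes of 2.19%. Their median was -0.21 against ctrl_102hpf and -0.16 against ctrl_96hpf. The 4 were msmo1 (-0.84), mvda (-0.77), hmgcs1 (-0.64) and sc5d (-0.64), of which the last 2 lost their call after median-of-ratios scaling, both at -0.58. srebf2, the master regulator of that pathway, stood at -0.06 ± 0.07.

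Some neural progenitor genes were lower than at either control age. Of 59 measured members 17 were lower and 3 were higher than in ctrl_102hpf, and after median-of-ratios scaling 15 were lower and 4 higher. Over all tested genes 3.68% were lower and 3.32% higher. Against ctrl_96hpf, 23 were lower and 2 were higher, where 2.19% and 2.65% of all tested genes were. Between the controls of 96 and 102 hpf ascl1b, the proneural bHLH gene, went from 13.3 to 11.9 TPM on average. It measured 11.8, 11 and 12.8 TPM in ctrl_102hpf and 3.33, 2.43 and 3.16 TPM in lc_6h (-1.70 ± 0.10, adjusted p = 9.8e-18). Hairy-related repressors were lower as well, the Notch target her4.1 from 8.12, 8.56 and 8.17 TPM to 3.64, 3.59 and 2.09 TPM (-1.20 ± 0.19, adjusted p = 3.2e-06) and her8a from 10.3, 13.4 and 11.4 TPM to 3.65, 4.68 and 5.86 TPM (-1.16 ± 0.14, adjusted p = 3e-08). Of the SoxC genes, sox11b was at -1.16 ± 0.18, and sox4a went from 98.5, 107 and 96.2 TPM to 53.0, 53.8 and 52.7 TPM (-0.91 ± 0.05, adjusted p = 8.9e-18). The higher members were sox21a (0.97) and the Notch ligands dld (0.94) and dlb (0.64). None of 59 synaptic and channel genes of differentiated neurons was called, and elavl3, a marker of postmitotic neurons, stood at 0.08 ± 0.07.

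Splicing regulators fell in a few strongly expressed cases. Of 69 SR, hnRNP and CLK genes 6 were lower and none was higher, where 3.68% and 3.32% of all tested genes were. An srsf7a identifier that is not counted in this list was called higher, and is given with the flagged results below. The RNA-binding gene rbm5 measured 168, 169 and 165 TPM in ctrl_102hpf and 87.8, 80.6 and 81.4 TPM in lc_6h (-1.0 ± 0.06, adjusted p = 1.5e-17). luc7l3, a U1-associated factor, went from 88.4, 88.1 and 75.2 TPM to 37.7, 36 and 37.5 TPM (-1.15 ± 0.05, adjusted p = 7.1e-21), and srsf1b, an SR protein gene, from 56.6, 57.8 and 53.5 TPM to 25, 26.1 and 25.4 TPM (-1.10 ± 0.05, adjusted p = 9.5e-20). In each, the cold samples lay in a narrow band below all controls. snrnp70, the U1 core protein gene, was at -0.71 ± 0.07 and the SR kinase gene srpk1a at -0.85 ± 0.12.

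One of the largest differences among the lower genes was that of bhlha9, a bHLH gene known from limb development in mammals. It measured 13.4, 18.5 and 14.8 TPM in ctrl_102hpf and 1.81, 1.39 and 1.24 TPM in lc_6h (-2.74 ± 0.23, adjusted p = 1.5e-12). grhl3, an epidermal transcription factor, went from 8.29, 5.70 and 7.36 TPM to 1.86, 1.55 and 1.13 TPM (-1.69 ± 0.16, adjusted p = 9.7e-11). kynu, kynureninase of tryptophan breakdown, was at 32.9, 27.5 and 24.3 TPM against 6.66, 7.23 and 7.49 TPM (-1.84 ± 0.39, adjusted p = 0.00038). mob1a, a Hippo pathway adaptor, was at 7.64, 5.90 and 4.52 TPM in the controls and was listed at 0 in all 3 cold samples, so no fold was taken.

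Photoreceptor genes were called in both directions. Of 59 members 9 were higher and 4 were lower, where 3.32% and 3.68% of all tested genes were. Against ctrl_96hpf 2 were higher and 1 was lower, near the shares over all genes of 2.65% and 2.19%. pde6ha, an inhibitory subunit of the cone phosphodiesterase, measured 71.4, 63.8 and 76.5 TPM in ctrl_102hpf and 247, 245 and 249 TPM in lc_6h (1.80 ± 0.09, adjusted p = 1.1e-18), and the cone arrestins arr3a (0.85) and arr3b (0.84) were higher. The green-cone opsin opn1mw2 was lower, at 19.9, 16.6 and 17.4 TPM against 9.17, 9.51 and 9.89 TPM (-0.85 ± 0.11, adjusted p = 7.6e-08). In unchilled larvae pde6ha, arr3a and arr3b were lower at 102 than at 96 hpf (-0.59, -0.66 and -0.72). Against ctrl_96hpf, pde6ha was still higher in the cold (1.2) and the arrestins were not called (0.19 and 0.12).

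Of 99 replication and cell cycle genes, 7 were higher and 3 lower, of which 1 was lower after median-of-ratios scaling, where 3.32% and 3.68% of all tested genes were higher and lower. Among the higher ones was cdc6, a replication licensing factor, at 5.17, 4.67 and 3.27 TPM in ctrl_102hpf and 16.1, 17.7 and 16.0 TPM in lc_6h (1.73 ± 0.15, adjusted p = 5.4e-12), with the licensing factor cdt1 at 0.77, the cyclin gene ccne2 at 1.00 and e2f7, a repressor of E2F targets, at 0.83. gmnn, an inhibitor of licensing, was called at 0.68, but lost its call in 4 of the 6 fits that left out 1 sample of the comparison (0.48 to 0.64). uhrf1, which maintains DNA methylation after replication, was lower at 19.9, 19.2 and 19.3 TPM against 11.2, 10.8 and 10.3 TPM (-0.80 ± 0.07, adjusted p = 1.7e-12).

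Replication-dependent histone entries stood out beside them. This set was put together after its values had been seen, so its counts are a description. Entries near 0 in the controls could enter the test through chilled or rewarmed samples, and could then hardly be called lower. A hist1h4l identifier (ENSDARG00000101249), for example, was at 0 TPM in ctrl_102hpf and 4.02, 2.86 and 3.18 TPM in lc_6h. Of 37 expressed identifiers whose symbol begins with hist, 35 were higher and none was lower, where 3.32% and 3.68% of all tested genes were. Their median was 1.93, and their summed level was 150 to 158 TPM in ctrl_102hpf and 839 to 903 TPM in lc_6h. hist2h3c measured 2.37, 3.33 and 1.85 TPM in the controls and 59.4, 56.5 and 61.5 TPM in the cold (4.12 ± 0.18, adjusted p = 1.7e-21). The more abundant hist2h2l copy (ENSDARG00000112150) was at 91.3, 91.8 and 94.7 TPM against 390, 369 and 368 TPM. The histone variant gene h2afx1 went from 365, 394 and 376 TPM to 1754, 1689 and 1694 TPM (2.18 ± 0.05, adjusted p = 1.9e-29). The replication-independent variant gene h3f3a was not called, at 727, 778 and 755 TPM against 744, 771 and 771 TPM. Of 15 expressed identifiers with H1, H2A and H3 variant symbols 3 were higher, namely h3f3c (0.67, adjusted p = 0.021) and both h2afx1 identifiers. In unchilled larvae h3f3c averaged 333 TPM at 96 hpf and 175 TPM at 102 hpf (-0.94, called lower). It was not called in lc_6h against ctrl_96hpf (-0.27). The call of the second h2afx1 identifier (2.70, adjusted p = 0.022) was lost at a pseudocount of 0.1 (adjusted p = 0.141) and in 4 of the fits that left out 1 sample (adjusted p = 0.0515 to 0.0812). A further 11 identifiers carry the symbol ano9a and were all higher, at 8.35 to 10.8 TPM summed in the controls and 277 to 297 TPM in the cold. The same limit of the filter holds for those near 0 in the controls. Of the 11, 10 have clone names in another annotation and their identity is uncertain. Histone copies are nearly identical, so reads may be split among them. Which RNA fraction was sequenced is not given in the sources used here, and a change in polyadenylated histone RNA and one in total histone RNA cannot be told apart.

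**Figure D4:**
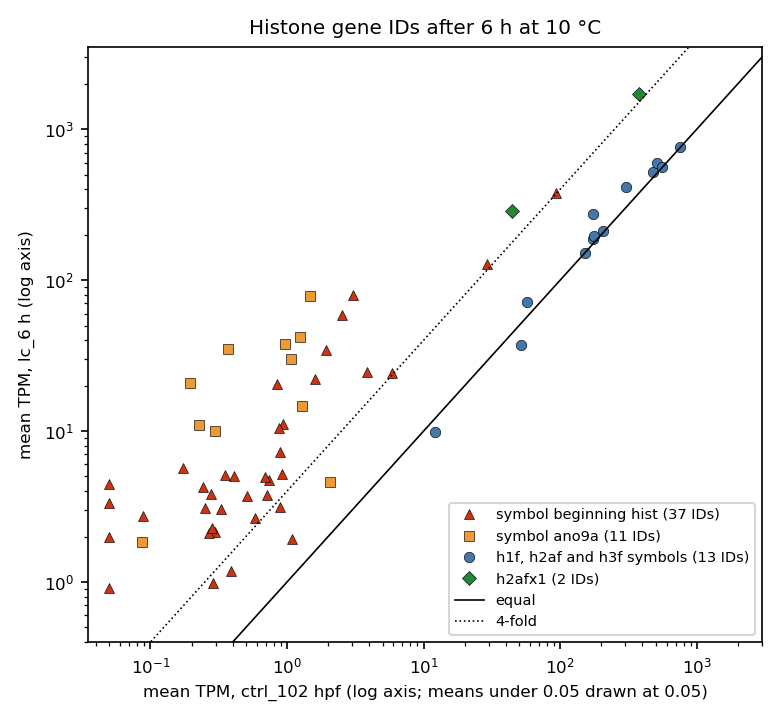
Mean TPM of each expressed histone and ano9a identifier in ctrl_102hpf (x axis) and lc_6h (y axis), both on log axes, with means under 0.05 TPM drawn at 0.05 and lines at equal level and at 4-fold. Of the 37 identifiers with hist symbols, 35 were called higher, where 3.32% of all tested genes were. The set was put together after its values had been seen, and entries near 0 in the controls could hardly be called lower. The variant h3f3a lies near the line of equality and both h2afx1 identifiers lie above the 4-fold line.

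MicroRNA precursor entries in the gene table, which measure precursor or host RNA and not the mature miRNA, were lower in 11 and higher in 3 of 34 expressed entries, where 3.68% and 3.32% of all tested genes were. This set too was chosen after its values had been seen. dre-mir-205, a precursor of epithelial tissue, was at 16.2, 18 and 18.1 TPM in ctrl_102hpf and 1.52, 1.84 and 2.82 TPM in lc_6h (-2.61 ± 0.18, adjusted p = 2.7e-15), and the muscle precursor dre-mir-206-1 at 10.8, 11 and 14.7 TPM against 1.51, 1.80 and 2.45 TPM (-2.17 ± 0.23, adjusted p = 9.2e-10). Entries of the neural mir-124 family went both ways. dre-mir-124-5 was lower (-1.65), while dre-mir-124-6, listed at 0 in 2 of the 3 control samples and at 13.2 TPM in the other, was at 51.2, 50.5 and 99.0 TPM in the cold. The latter call was lost without ctrl_102hpf replicate 1 or 2 (adjusted p = 0.065 and 0.064).

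Large constitutive programs showed no called gene. This held for 80 cytosolic ribosomal proteins, 84 nuclear oxidative phosphorylation subunits, 45 proteasome subunits, 21 aminoacyl-tRNA synthetases, 97 sarcomere genes, 45 keratin and desmosome genes, 23 erythroid genes, 27 glial genes and 25 ionocyte genes at the deposited scale. Their medians ran from -0.21 in the glial genes to 0.06 in the sarcomere genes. Summed sarcomere transcripts were 106251 to 108447 TPM in ctrl_102hpf and 110824 to 114866 TPM in lc_6h, a slightly larger share of the library in the cold. Among 19 cold-inducible RNA and chromatin proteins none was called, and cirbpa, a cold-inducible RNA-binding protein gene, was at 361, 373 and 366 TPM against 397, 392 and 384 TPM (0.09 ± 0.04). Of 77 collagen and cartilage matrix genes 4 were higher, where 3.32% of all tested genes were. The count was 6 after median-of-ratios scaling and 2 after quantile normalization. Among the 4, col1a1a went from 855, 863 and 837 TPM to 1312, 1267 and 1318 TPM (0.61 ± 0.07). Its call was lost after quantile normalization (0.58). Against ctrl_96hpf none of the 77 was called, and their median was -0.04. Of 32 endothelial genes 4 were lower, including the apelin receptors aplnra (-0.82) and aplnrb (-0.76), where 3.68% of all tested genes were lower.

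The 6 h comparison was then set beside those at 1, 2 and 12 h, which use other samples throughout. At 1 h, 95 genes were higher (0.374%) and 50 were lower (0.197%), and at 2 h 230 (0.906%) and 59 (0.232%). At 12 h 1466 (5.77%) were higher and 3583 (14.1%) were lower. The median of all tested genes at 12 h lay at -0.16 in the deposited scale and at 0.002 after median-of-ratios scaling. Calls at 12 h were not counted after other scalings, so their split into higher and lower holds for the deposited scale only. Of the 844 genes higher at 6 h, 198 were already called higher at 2 h (23.5% of the 844 and 86.1% of the 2 h list), and 675 were called higher at 12 h (80.0% of the 844 and 46.0% of the 12 h list). Of the 933 lower genes only 21 were called lower at 2 h (2.25% of the 933 and 35.6% of the 2 h list), and 763 at 12 h (81.8% and 21.3%). The median log2 fold change of the 844 genes was 0.14, 0.38, 0.97 and 1.15 at 1, 2, 6 and 12 h, and that of the 933 was -0.03, -0.16, -0.74 and -1.01.

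Testing the difference between the 6 h and 2 h effects gave 334 genes with a higher effect at 6 h (1.32%) and 411 with a lower one (1.62%). Higher calls were 44.8% of these, but 61.8% after median-of-ratios scaling and 59% after quantile normalization. Early-response genes differed in when they rose. fosab was near its later level by 2 h, with log2 fold changes of 3.90, 5.05, 5.39 and 4.91 at 1, 2, 6 and 12 h. Its 6 h effect was not called different from that at 2 h (0.34 ± 0.37). egr1 went through 2.11, 2.99, 4.17 and 3.05, and its 6 h effect exceeded that at 2 h (1.18) and that at 12 h (the difference of 12 h minus 6 h was -1.12), both called. ptgs2b rose late, at 0.72, 0.97, 2.83 and 5.45, with a called difference of 2.62 between 12 and 6 h.

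Clock genes changed between 2 and 6 h. nr1d1 was at -0.14, 1.64, 4.76 and 4.08, per1b at -0.02, 0.57, 3.65 and 5.23, and cry2 at -0.35, 0.16, 2.09 and 4.27. cry1a crossed from below to above its control, at -1.77, -1.53, 1.53 and 2.44, with a difference of 3.05 between 6 and 2 h. per2 followed a like course at -2.81, -2.28, 0.37 and 2.11. Of the 17 Period and Cryptochrome genes 12 had a higher effect at 6 h than at 2 h, as had 12 of the 21 Rev-erb, ROR, bhlhe and PAR bZIP genes, against 1.32% of all genes.

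Some genes were called lower early against the same-age controls, 50 at 1 h and 59 at 2 h. Among these were 5 and 6 of the 17 Period and Cryptochrome genes. Lower calls in the digestive lists came later. At 2 h none of the 35 pancreatic and none of the 40 intestinal genes was called, and the 6 h effect was lower than the 2 h effect for 23 and 21 of them (1.62% of all genes). The unchilled controls of both lists rose over these hours, as given above. chia.2 was at 0.14, -0.57, -1.76 and -2.62 through the 4 times, and ascl1b at -0.09, -0.56, -1.70 and -1.92. bhlha9 was at 0.01, -0.74, -2.74 and -3.07, and srsf1b at -0.45, -0.54, -1.10 and -1.68. kynu was called lower at 6 h and at none of the other times, at -0.32, 0.47, -1.84 and 0.46, and its 6 h effect differed from both neighbouring times (-2.31 against 2 h, and 2.3 for 12 h against 6 h).

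**Figure D5:**
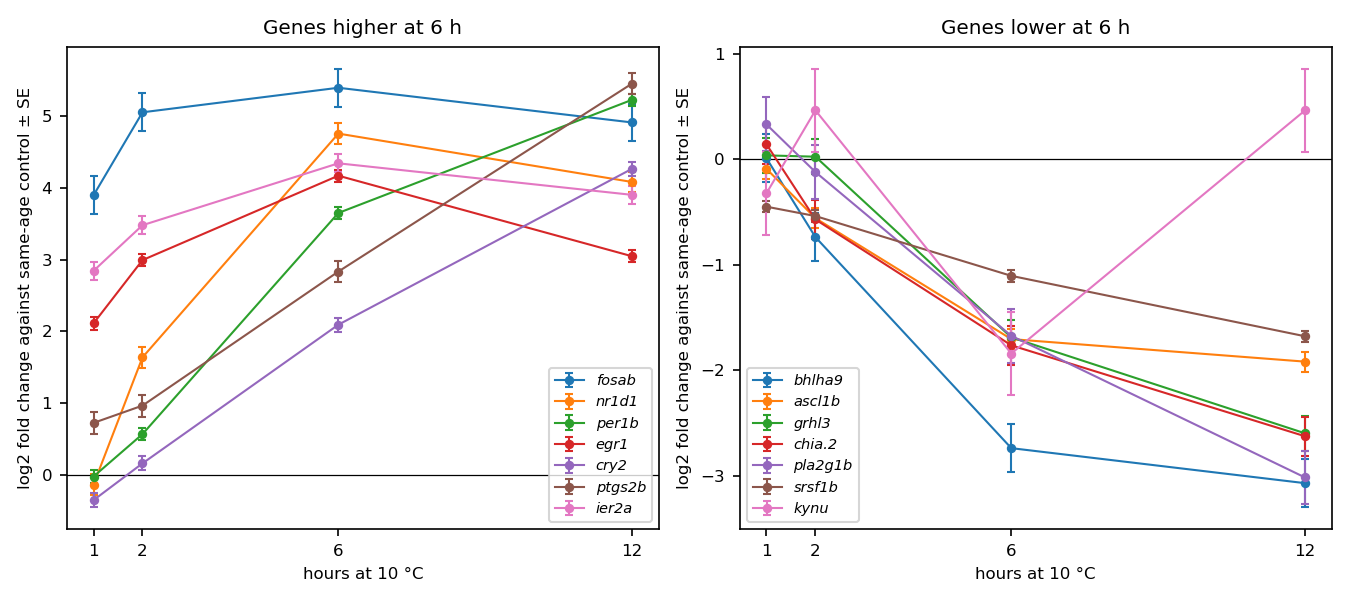
Log2 fold change ± SE of chilled larvae against their own same-age control after 1, 2, 6 and 12 h at 10 °C, for 7 genes higher at 6 h (left) and 7 lower at 6 h (right). fosab is already at 3.90 after 1 h, nr1d1 climbs from 1.64 at 2 h to 4.76 at 6 h, and kynu is at -1.84 at 6 h and 0.46 at 12 h.

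Testing 12 h against 6 h gave 309 genes with a higher effect at 12 h (1.22%) and 763 with a lower one (3.01%). The direction of this split rested on the scaling. The median of all genes lay at -0.11 in this contrast, and higher calls were 28.8% of the total at the deposited scale, 59.7% after median-of-ratios scaling and 55.3% after quantile normalization. The named changes above were larger than that shift. At 12 h, in the deposited scale, 30 of 35 pancreatic genes were called lower, with a median of -1.70. So were 31 of 40 intestinal genes, with a median of -1.24, where 14.1% of all genes were lower.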

How the data were processed

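The authors mapped reads with Salmon 0.13.1, with corrections for sequence, GC and position bias, to the zebrafish cDNA set of Ensembl, summed transcripts to genes with tximport, and deposited TPM values for 54 samples (18 groups of 3). Their own test used DESeq2 on counts, which were not used here. The RNA selection in library construction is not given in the sources used here. Each column sums to 998493 to 999530 TPM, and TPM values hold no read counts. The read totals that the study lists per sample were not used here, and precision was read from the spread between samples.

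From the TPM values, log2(TPM + 1) was fitted with limma 3.58.1 (R 4.3.3) on 18 group means over all 54 samples, with a mean-variance trend and 36 residual degrees of freedom. Genes entered the test if all 3 samples of some group reached 1 TPM. Every p-value in the text is limma's moderated p after Benjamini-Hochberg adjustment over 25387 genes, and calls were limited to changes of 1.5-fold or more whose adjusted p did not exceed 0.05. The difference between 2 cold effects was a contrast in the same fit. The fit was tested on simulated data.

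Of 2382 entries in 59 gene lists, 2214 were expressed. Where several identifiers share a symbol, a list holds only the identifier with the highest mean TPM over all samples. The comparison and the lists were chosen with earlier results of these data known, and the sets of histone, miRNA precursor and other genes outside the lists after their values were seen. Named genes were the 12 with the largest change in each direction among calls with a mean of at least 5 TPM and no overlap between groups, up to 5 called members per list and direction, members whose role was needed to read a list, and the 5 largest differences per contrast. In all, 5042 expressed identifiers share a symbol with another. Alternatives were other pseudocounts, filters, scalings, thresholds, samples in the fit, controls and a replicate block, and each sample was left out in turn.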

Additional observations from a re-analysis of the deposited data

Results flagged for a closer look

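The results below are singled out because the cold effect at 6 h differed from that at 2 h or at 12 h by limma's test of the difference itself. Between 6 and 2 h, 334 genes had a higher and 411 a lower effect, and between 12 and 6 h 309 a higher and 763 a lower one.

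The largest differences of 6 h minus 2 h among named genes belonged in part to the clock, with nr1d1 at 3.12, per1b at 3.08 and cry1a at 3.05 on the log2 scale. srsf7a, a splicing factor gene, was at 2.89, and its controls held 2 samples listed at 0 and 1 at 2.26 TPM. An identifier with the symbol ano9a (ENSDARG00000099514) was at 2.79. On the lower side stood kynu at -2.31, bhlha9 at -2.0, the miRNA precursor entries dre-mir-729 at -1.82 and dre-mir-206-1 at -1.68, and grhl3 at -1.71.

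For 12 h minus 6 h, the inducible prostaglandin synthase ptgs2b was at 2.62, kynu at 2.3, cry2 at 2.17, lonrf1l at 1.94 and pde6ha at 1.76. Among the lower, an identifier of gadd45ga (ENSDARG00000117042) was at -2.99, with control samples at 7.77, 3.73 and 0 TPM at 102 hpf, and plpp2b at -2.54, with control samples at 6.45, 0 and 0 TPM. Without ctrl_102hpf replicate 3 the 6 h change of gadd45ga was 1.46 and not called (adjusted p = 0.136). With only the groups compared in the limma fit, neither 6 h change was called. It was 2.35 for gadd45ga (adjusted p = 0.0762) and 2.16 for plpp2b (adjusted p = 0.101). Both plekhf1 identifiers were lower, at -2.21 and -1.89, and cpo, an intestinal carboxypeptidase gene, at -1.66.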

How the results depend on the processing

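The 844 higher and 933 lower calls at 6 h stayed within 1.5 times under other pseudocounts, filters and scalings, with only the groups compared, without the trend and at an adjusted p of 0.01. At a fold of at least 2 they were 400 and 158. With only the groups compared they were 797 and 864, and 6 of the 219 named genes lost their call. Against ctrl_96hpf there were 672 higher and 555 lower, and 4 named genes turned sign, CELA1 (1 of many) to 0.084, si:ch211-214p16.3 to 0.39, cryba1b to -0.018 and opn1lw1 to 0.079, while 56 of 219 lost their call. With median-of-ratios scaling, 272 genes were lower for 6 h minus 2 h, and 555 higher and 374 lower for 12 h minus 6 h. With quantile normalization 373 were lower for 12 h minus 6 h. With only the groups compared, 222 were lower for 6 h minus 2 h, and 120 higher and 49 lower for ctrl_102hpf against ctrl_96hpf. At an adjusted p of 0.01 the lower counts were 237, 466 and 60 for 6 h minus 2 h, 12 h minus 6 h and the controls. At a fold of at least 2, the higher and lower counts were 158 and 92 for 6 h minus 2 h, 91 and 113 for 12 h minus 6 h, and 58 and 25 for the controls. The cause of these shifts was not tested.

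Leaving out single samples gave 792 to 838 higher and 904 to 988 lower genes at 6 h, 306 to 347 and 351 to 434 for 6 h minus 2 h, 270 to 332 and 656 to 861 for 12 h minus 6 h, and 181 to 283 and 78 to 114 for the controls. Of the 219 named genes 23 lost their call in at least 1 such fit. The replicate numbers showed no pairing of the samples of lc_6h and ctrl_102hpf. Deviations of same-numbered samples from their group means correlated over genes at -0.0511, -0.0352 and -0.0369, all below 0.1. With a replicate block the calls at 6 h were 841 higher and 932 lower, and no named gene lost its call. The block gave 332 and 408 genes for 6 h minus 2 h, 313 and 758 for 12 h minus 6 h, and 251 and 94 for the controls. TPM values hold no read counts, and a gene listed at 0 may be one that the quantification did not resolve from a copy.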

Other observations

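Genes outside the lists also changed at 6 h, and those named here were chosen after their values were seen. elf3, an epithelial ETS factor, measured 10.0, 11.3 and 8.79 TPM in ctrl_102hpf and 62.0, 52.4 and 63.7 TPM in lc_6h (log2 fold change 2.45, limma adjusted p = 2.6e-16). f2rl1.2, a protease-activated receptor gene, went from 2.2, 1.84 and 2.08 TPM to 15.9, 16.0 and 16.7 TPM (2.50), and the receptor gene gpr186 from 1.13, 1.43 and 1.44 TPM to 21.4, 23.0 and 21.1 TPM (3.29). noxo1a, an organizer of the superoxide-producing Nox1 complex in mammals, was at 2.01, 3.14 and 2.62 TPM against 29.7, 34.0 and 41.5 TPM (3.33). The EGF-family ligand epgn was higher by 1.51, the Myc homologue mych by 1.52 and the mRNA 3' end factor pcf11 by 1.53.

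Among the lower genes, the death ligand gene tnfsf10 was at 17.3, 20.5 and 21.2 TPM in ctrl_102hpf and 5.86, 6.02 and 6.03 TPM in lc_6h (-1.56, limma adjusted p = 3.4e-18). The forebrain and eye factor six3a was at 18.9, 15.8 and 18.5 TPM against 6.39, 5.75 and 6.41 TPM (-1.38), the Wnt receptor fzd5 at -1.05 and the bHLH repressor helt at -1.33. The RNA-binding genes rbm15 (-1.22) and tial1 (-1.08) were lower as well, tial1 from 91.7, 96.2 and 85.9 TPM to 43.0, 42.5 and 42.0 TPM.

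The sulfotransferase gene sult1st2 was lower than in ctrl_102hpf, at -1.49, as were the cytochrome P450 genes cyp3c3 (-1.38), cyp2ad2 (-1.37) and cyp3a65 (-1.04). In unchilled larvae these 4 genes were called higher at 102 than at 96 hpf (1.28, 0.98, 1.15 and 0.85). The 2 comparisons share the ctrl_102hpf samples.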
